A study of Mus musculus with 18 samples.

Results

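The 10 genes described here encode chaperones and other proteins of the endoplasmic reticulum (ER) together with XBP1, a transcription factor that controls such genes. They are Xbp1, Hspa5, Hsp90b1, Dnajb9, Herpud1, Pdia4, Pdia6, Sdf2l1, Creld2 and Hyou1, chosen by name from the 28030 genes of the deposited table, and each matched 1 Ensembl gene. All 10 passed the filter on low counts that left 12477 genes for testing. RNA was sequenced from pericentral and periportal hepatocytes, the liver cells near the outgoing central vein and near the incoming portal vessels, which the sample titles give as separated with digitonin. All mice were wild-type C57BL/6J males of 12 weeks on normal chow, and the labels name no transgene or drug treatment. For 3 days they were trained to 16 h of fasting overnight and 8 h of daytime feeding, and on the day of the experiment food came with water holding 20% sucrose. Fed mice were killed after 4 h of feeding at clock hour 13, mice fasted for 8 h at clock hour 21, and mice fasted for 24 h at clock hour 13 of the next day. Each of the 6 groups, 2 zones by 3 states, had 3 libraries.

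Secreted and membrane proteins enter the ER unfolded, and HSP70 and HSP90 chaperones, their co-chaperones and protein disulfide isomerases fold them there. When folding demand exceeds capacity, the sensors IRE1 (gene Ern1), ATF6 and PERK (gene Eif2ak3) start the unfolded protein response: IRE1 cuts a short stretch out of Xbp1 mRNA so that an active factor is made, and XBP1 and ATF6 raise chaperone genes through ER stress response elements. Hepatocytes secrete most plasma proteins, and in liver this response is known to be engaged by feeding and by insulin.

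Library totals ran from 18359911 to 26384358 estimated counts, and levels are given as CPM, the counts of a gene per 1000000 counts of the library after scaling. A summed set of 4 pericentral markers (Cyp2e1, Cyp1a2, Glul and Oat) stood at 9305 to 18314 CPM in the 9 pericentral libraries and 420 to 2044 CPM in the 9 periportal ones, and 4 periportal markers (Cyp2f2, Hal, Gls2 and Sds) at 278 to 1793 against 3134 to 5413 CPM. Pericentral replicate 2 at 24 h stood apart from its group: Glul was at 111 CPM, against 928 and 707 CPM in replicates 1 and 3 and 111 to 175 CPM in the periportal libraries at 24 h. Oat was at 257 CPM there, against 1055 and 1158 CPM, and the periportal marker Cyp2f2 at 793 CPM, against 345 and 322 CPM. This library, labelled pericentral, thus carried lower Glul and Oat and higher Cyp2f2 than its replicates. The summed pericentral set, to which Cyp2e1 adds most, was still at 10836 CPM or more in every pericentral library at 24 h. In the periportal ones at 24 h that sum was 561 to 2044 CPM. Replicate 2 also held the group's lowest Herpud1 and Dnajb9 values. Its Xbp1, Hspa5, Hsp90b1, Pdia4, Pdia6 and Hyou1 values were the group's highest. Without this library 9 of the 10 genes were called between fed and 24 h pericentrally instead of 10 (Dnajb9 was lost), with Herpud1 at 0.98 and Xbp1 at -1.05, and 10 as the mean over the zones. From 8 h to 24 h 3 were called pericentrally, 3 periportally (Sdf2l1 was lost) and 6 over both zones (Hsp90b1 was lost), and between zones 0 at 24 h and 3 over the 3 states. The summed hepatocyte markers Alb, Ttr, Apoa1 and Serpina1c were at 55961 CPM or more in every library. Summed markers of plasma and B cells, which are rich in these chaperones, stayed at 0.335 to 2.16 CPM. Those of sinusoidal endothelial cells reached at most 25.8 CPM, Kupffer cells and leukocytes 12.3 CPM, stellate cells 10.3 CPM and cholangiocytes 33.7 CPM, with Epcam at 0 in every library. Nothing in the labels says whether replicates or zones came from separate animals, so p-values measure the spread between these libraries, which may be technical. In bulk RNA, fewer cells of a type and less RNA per cell cannot be told apart.

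The promoters show what several of these genes share. RefSeq promoter windows (GRCm38.p6, 250 bases before to 50 after each gene's start) were found for 9 of the 10 genes, all but Hyou1. The windows were searched on both strands for the ER stress response element ERSE, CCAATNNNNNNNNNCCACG, which pairs a binding site of the general factor NF-Y with a site of ATF6 and XBP1. An exact ERSE occurred in 39 of all 32851 windows, which is 0.119%, and in those of 4 of the 9 genes: Hspa5, Hsp90b1, Pdia6 and Creld2. The sites are written here in the element's own orientation, with its fixed bases in capitals.
Hspa5: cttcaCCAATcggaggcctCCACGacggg
Hsp90b1, nearer site: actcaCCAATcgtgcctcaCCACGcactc
Hsp90b1, farther site: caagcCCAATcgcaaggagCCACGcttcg
Pdia6: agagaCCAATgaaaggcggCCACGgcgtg
Creld2: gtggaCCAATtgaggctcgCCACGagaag
Herpud1, ERSE-II: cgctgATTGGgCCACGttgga
The Hspa5 element lay at chr2:34772025-34772043, 46 bases before the RefSeq start and inside an Hspa5 exon of the GENCODE M21 annotation. The Hsp90b1 elements lay at chr10:86705533-86705551 and chr10:86705638-86705656, the Pdia6 element at chr12:17266491-17266509 and the Creld2 element at chr15:88819520-88819538, all outside annotated exons. Both the Creld2 element and the nearer Hsp90b1 element ran opposite to their gene. The last line is the related ERSE-II, ATTGGNCCACG, at chr8:94386377-94386387 before Herpud1. ERSE-II occurred in 12 windows (0.0365%) and, among these genes, in that of Herpud1 alone. The core of the XBP1 element UPRE, TGACGTGG, occurred in 222 windows (0.676%) and in none of the 9. No match says only that these letters are not in the window, and a match is not a shown binding site.

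The stretches upstream of Creld2 and Herpud1 are shown whole because Creld2 fell most of the 10 at 8 h and Herpud1 rose at 24 h, and neither stretch overlapped an annotated exon. Both are on the plus strand and run up to the RefSeq start, with the element's fixed bases in capitals. The Creld2 stretch is chr15:88819396-88819645 and the Herpud1 stretch chr8:94386179-94386428.
Creld2: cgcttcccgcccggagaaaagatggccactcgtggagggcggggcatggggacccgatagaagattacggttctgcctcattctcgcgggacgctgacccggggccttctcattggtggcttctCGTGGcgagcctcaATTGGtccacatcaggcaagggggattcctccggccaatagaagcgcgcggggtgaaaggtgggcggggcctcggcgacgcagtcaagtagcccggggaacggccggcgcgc
Herpud1: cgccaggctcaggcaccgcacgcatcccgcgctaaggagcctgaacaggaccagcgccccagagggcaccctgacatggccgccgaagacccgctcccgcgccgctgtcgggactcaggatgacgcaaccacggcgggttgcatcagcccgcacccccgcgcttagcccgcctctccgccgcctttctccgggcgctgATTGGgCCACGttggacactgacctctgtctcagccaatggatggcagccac
Of the bases shown, 66% were G or C for Creld2 and 69.2% for Herpud1. The same ERSE before Creld2 also lay in the promoter window of Alg12, the neighbouring gene for a mannosyltransferase of N-linked glycosylation.

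After 24 h of fasting 9 of the 10 genes had fallen, and Herpud1 had risen. As the mean over both zones, the 9 stood at 24 h between -0.73 (Dnajb9) and -2.79 (Sdf2l1) on the log2 scale against fed, and Herpud1 at 0.90. All 10 passed edgeR's quasi-likelihood test at an adjusted p under 0.05 (p-values adjusted over all 12477 genes by Benjamini-Hochberg), which is what "fell" and "rose" mean throughout. Of all genes tested, 17.5% fell and 17% rose in the same comparison. The median change of the 10 was -1.54, against 0.01 over all genes tested.

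**Figure D1:**
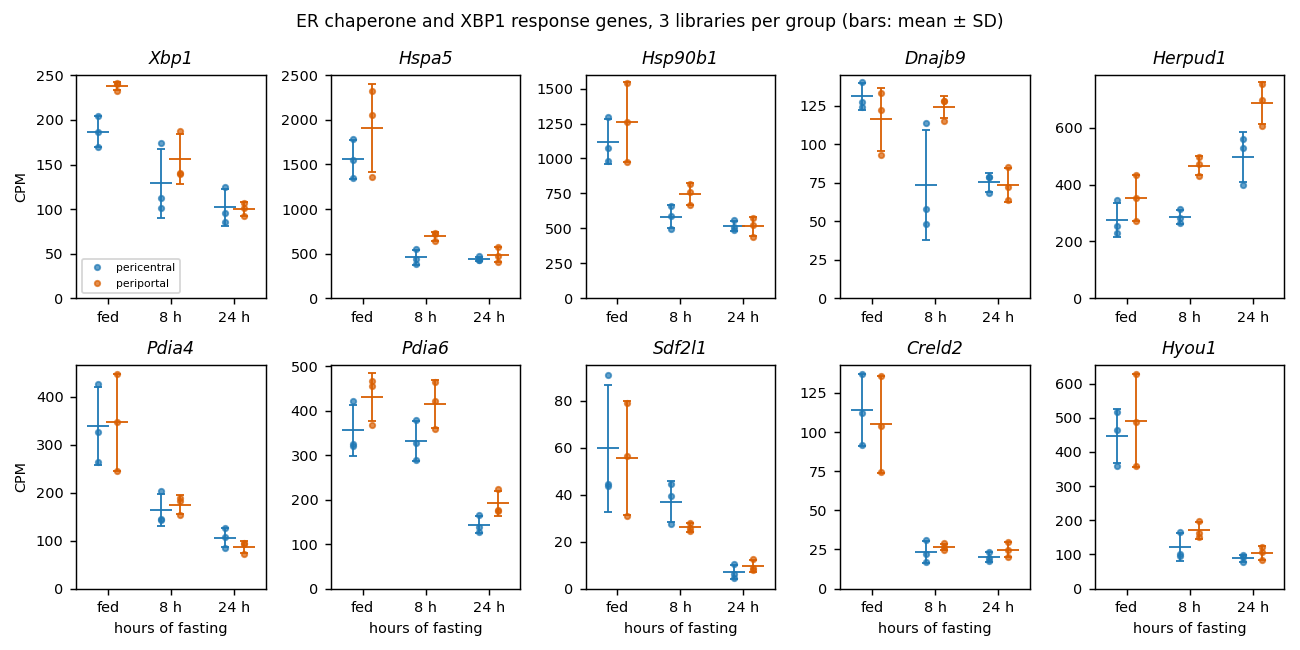
Level in CPM of each of the 10 genes (vertical axes from 0) by hours of fasting, with points for single libraries and bars for the mean ± SD of 3 libraries, pericentral in blue and periportal in orange. Hspa5, Hsp90b1, Creld2 and Hyou1 are already low at 8 h, Pdia6 is low only at 24 h, and Herpud1 is highest at 24 h.

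Hspa5 (ENSMUSG00000026864, chr2:34771970-34777547, GRCm38, plus strand) encodes BiP, the HSP70 of the ER and the chief repressor of the 3 sensors. Fed pericentral libraries held 1546, 1346 and 1782 CPM and fed periportal ones 2052, 1361 and 2318 CPM. At 8 h the values were 550, 436 and 387 CPM pericentrally and 637, 721 and 727 CPM periportally. At 24 h they were 427, 470 and 425 CPM, and 478, 410 and 577 CPM. Every fasted library lay below every fed one, while the 8 h and 24 h libraries overlapped. The change from fed to 8 h was -1.77 ± 0.19 (log2, SE, n = 3 per group) pericentrally and -1.46 ± 0.19 periportally, with edgeR adjusted p = 1.44e-05 and 8.11e-05. From 8 h to 24 h the mean change over the zones was -0.28 ± 0.13 and did not pass (adjusted p = 0.141).

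Hyou1 (ENSMUSG00000032115, chr9:44379490-44392369, plus strand), a large HSP70 relative that acts as nucleotide exchange factor for BiP, fell at 8 h and had fallen further at 24 h. It stood at 447 ± 79.1 CPM (SD, n = 3) pericentrally and 492 ± 135 periportally in fed mice. At 8 h it stood at 121 ± 40.5 and 171 ± 24.8 CPM, and at 24 h at 88.8 ± 10.8 and 104 ± 19.5 CPM. The fed libraries (359 to 628 CPM) did not overlap those at 8 h (94.1 to 198) or 24 h (76.7 to 121). The mean change over the zones was -1.71 ± 0.17 at 8 h and -2.29 ± 0.17 at 24 h, with adjusted p = 2.53e-06 and 1.32e-07. The further step from 8 h to 24 h was -0.58 ± 0.17 (adjusted p = 0.0214). That call was lost without pericentral replicate 1 at 8 h, pericentral replicate 3 at 24 h or periportal replicate 2 at 24 h (adjusted p up to 0.0576).

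Creld2 (ENSMUSG00000023272, chr15:88819646-88826683, plus strand), an ER-resident protein with disulfide isomerase activity, had the largest fall of the 10 at 8 h. Its fed values were 112, 91.7 and 137 CPM pericentrally and 104, 74.4 and 136 CPM periportally. After 8 h they were 31, 21.8 and 17.2 CPM, and 26.4, 28.8 and 24.4 CPM. After 24 h they were 23.3, 19.3 and 17.3 CPM, and 24.9, 20.1 and 29.7 CPM. Every fed library was far above every fasted one, and the 8 h and 24 h libraries covered nearly the same range. The change was -2.28 ± 0.24 pericentrally and -1.98 ± 0.24 periportally at 8 h (adjusted p = 2.2e-05 and 7.74e-05), and -0.16 ± 0.17 from 8 h to 24 h over both zones (adjusted p = 0.564).

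Hsp90b1 (ENSMUSG00000020048, chr10:86690209-86705509, minus strand) encodes GRP94, the HSP90 of the ER. Its fed libraries held 975 to 1543 CPM, its 8 h libraries 496 to 815 CPM and its 24 h libraries 442 to 578 CPM. Fed and fasted libraries did not overlap. Over both zones it fell by 0.85 ± 0.12 on the log2 scale at 8 h (adjusted p = 4.94e-05) and was at -1.20 ± 0.12 at 24 h (adjusted p = 1.19e-06). The step from 8 h to 24 h, -0.35 ± 0.12, passed narrowly (adjusted p = 0.0433) and was lost in 10 of the 18 fits that left out 1 library (adjusted p up to 0.108).

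Pdia4 (ENSMUSG00000025823, chr6:47796141-47813430, minus strand) and Pdia6 (ENSMUSG00000020571, chr12:17266545-17284770, plus strand) are protein disulfide isomerases, which form and rearrange disulfide bonds, and they differed in timing. Pdia4 ranged over 246 to 447 CPM fed, 144 to 204 CPM at 8 h and 71.2 to 126 CPM at 24 h, with no overlap between the 3 states. Its change over both zones was -1.02 ± 0.16 at 8 h and -1.84 ± 0.16 at 24 h against fed (adjusted p = 0.000188 and 5.89e-07). The step from 8 h to 24 h was -0.82 ± 0.16 (adjusted p = 0.00199).

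Pdia6 did not pass the test at 8 h and had fallen at 24 h. Fed values were 326, 321 and 422 CPM pericentrally and 457, 368 and 468 CPM periportally. At 8 h they were 328, 379 and 289 CPM, and 359, 465 and 423 CPM, which overlapped the fed values in both zones. At 24 h they were 139, 166 and 128 CPM, and 174, 177 and 224 CPM, all below every earlier library. The mean change from fed to 8 h was -0.08 ± 0.11 (adjusted p = 0.665), and from 8 h to 24 h it was -1.16 ± 0.11 (adjusted p = 4.14e-06). Pdia6 carries an ERSE with the same fixed letters as those of Hspa5 and Creld2, whose levels had fallen by 8 h. The bases between the fixed letters differ. The Creld2 element runs opposite to its gene, while those of Hspa5 and Pdia6 run with theirs. The part of these features in the timing was not tested.

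Sdf2l1 (ENSMUSG00000022769, chr16:17130138-17132383, minus strand), an ER-lumen component of BiP and HSP40 complexes, had the widest range of the 10, with an 8.45-fold gap between its highest and lowest group mean. Fed libraries held 44.3, 43.8 and 90.9 CPM pericentrally and 56.4, 30.8 and 79.1 CPM periportally. At 8 h they held 44.4, 39.3 and 27.3 CPM, and 27.9, 25.8 and 24.4 CPM. At 24 h they held 10.5, 6.29 and 4.4 CPM, and 7.94, 8.65 and 12.6 CPM. Fed and 8 h libraries overlapped, and the 24 h libraries lay apart from both. Neither zone passed at 8 h alone (-0.69 ± 0.37 and -1.09 ± 0.38, adjusted p = 0.262 and 0.0688), while the mean over the zones did (-0.89 ± 0.26, adjusted p = 0.0221). At 24 h the change was -3.07 ± 0.41 pericentrally and -2.51 ± 0.40 periportally (adjusted p = 0.000153 and 0.00073). The 8 h call over both zones was lost without the filter on low counts and in 4 of the 18 fits that left out 1 library (adjusted p up to 0.0613). Fed replicates spread widely, with an SD of 27 CPM on a mean of 59.7 pericentrally.

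Dnajb9 (ENSMUSG00000014905, chr12:44205559-44210326, minus strand) encodes ERdj4, an HSP40 co-chaperone of BiP that holds IRE1 inactive. Its fed values were 127, 140 and 124 CPM pericentrally and 133, 93.1 and 122 CPM periportally. At 8 h the pericentral libraries held 114, 47.9 and 57.9 CPM and the periportal ones 115, 128 and 128 CPM. At 24 h the values were 78.6, 68 and 78.9 CPM, and 71.9, 63.5 and 85.3 CPM. Pericentral replicate 1 at 8 h sat near the fed level and the other two well below it. The pericentral change at 8 h was -0.83 ± 0.24 (adjusted p = 0.0277) and the periportal one 0.10 ± 0.23 (adjusted p = 0.842). The difference between those changes, 0.93 ± 0.33, did not pass (adjusted p = 0.909). At 24 h the pericentral change was -0.80 ± 0.24 (adjusted p = 0.0248) and the periportal one -0.66 ± 0.24 (adjusted p = 0.0634). The pericentral 24 h call was lost without fed pericentral replicate 1 or 2 or any 1 of the pericentral libraries at 24 h (adjusted p up to 0.0832). The periportal change at 24 h passed by DESeq2, with only the groups compared in the fit, and without pericentral replicate 1 or 2 at 8 h (adjusted p down to 0.00293). The pericentral call at 8 h was lost without the filter, with only the groups compared in the fit, and without any 1 of the fed pericentral libraries or of pericentral replicates 2 and 3 at 8 h (adjusted p up to 0.17). Without pericentral replicate 1 at 8 h the change was -1.30.

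Xbp1 (ENSMUSG00000020484, chr11:5520659-5525893, plus strand) itself had one of the smaller changes. Fed libraries held 187, 170 and 205 CPM pericentrally and 240, 242 and 233 CPM periportally. At 8 h the values were 174, 101 and 113 CPM, and 188, 139 and 141 CPM. At 24 h they were 95.4, 125 and 85.3 CPM, and 101, 107 and 91.8 CPM. The fed and 24 h libraries did not overlap, and those at 8 h reached into both. Over both zones Xbp1 was at -0.57 ± 0.13 at 8 h and -1.07 ± 0.13 at 24 h (adjusted p = 0.003 and 1.02e-05). The periportal call at 8 h, -0.61 ± 0.18 (adjusted p = 0.0316), was lost in 5 of the 18 fits that left out 1 library (adjusted p up to 0.12). Pericentrally the change at 8 h was -0.54 ± 0.18 and did not pass (adjusted p = 0.0593). That change passed with the replicate number as a block, by DESeq2 and by limma-voom. It also passed without pericentral replicate 1 at 8 h or pericentral replicate 2 at 24 h. These are gene totals, which cannot tell the unspliced from the spliced mRNA, since the 2 differ only by the 26 bases that IRE1 removes. In the GENCODE transcript Xbp1-201 those are bases 815 to 840, in capitals here between 15 bases on either side.
Xbp1: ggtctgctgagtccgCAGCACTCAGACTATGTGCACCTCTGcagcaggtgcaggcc

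Herpud1 (ENSMUSG00000031770, chr8:94386438-94395377, plus strand) encodes an ER membrane protein of ER-associated degradation (ERAD), the export of misfolded proteins for destruction, and it was the only one of the 10 to rise. Fed values were 230, 253 and 344 CPM pericentrally and 353, 272 and 434 CPM periportally. At 8 h they were 313, 264 and 284 CPM, and 429, 473 and 496 CPM. At 24 h they were 529, 397 and 561 CPM, and 607, 752 and 698 CPM. Within each zone every 24 h library was above every fed one. The change at 24 h was 0.85 ± 0.18 pericentrally and 0.96 ± 0.18 periportally (adjusted p = 0.00293 and 0.00138). At 8 h it was 0.06 ± 0.18 and 0.40 ± 0.18, and neither passed (adjusted p = 0.88 and 0.151). The step from 8 h to 24 h over both zones was 0.67 ± 0.13 (adjusted p = 0.00143).

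Per kilobase of 1 principal transcript, Hspa5 and Hsp90b1 had the highest levels of the 10 in fed pericentral hepatocytes, at 424 and 396 CPM per kilobase. Dnajb9 and Sdf2l1 had the lowest, at 53.2 and 53.9. At 24 h Herpud1 was first, at 254 CPM per kilobase pericentrally and 351 periportally, against 120 and 133 for Hspa5. Sdf2l1 was last, at 6.38 and 8.76. These levels depend on which transcript is taken for the length.

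Counted by zone, 6 of the 10 fell at 8 h pericentrally (Hspa5, Hsp90b1, Dnajb9, Pdia4, Creld2 and Hyou1), where 6.57% of all genes tested fell. Periportally 6 also fell, with Xbp1 in place of Dnajb9, against 6.85% of all genes. The Xbp1 changes were close in the zones (-0.54 pericentrally, -0.61 periportally), and their difference, -0.07 ± 0.25, did not pass (adjusted p = 0.993). As the mean over the zones 7 fell (Xbp1, Hspa5, Hsp90b1, Pdia4, Sdf2l1, Creld2 and Hyou1), against 12.5%. At 24 h the pericentral libraries had 9 lower and Herpud1 higher, against 11.1% lower and 10.8% higher among all genes. The periportal ones had 8 lower, all but Dnajb9 of the 9, and Herpud1 higher, against 10% and 9.59%. The 8 h and 24 h comparisons share the fed libraries, so they are not independent. The 8 h mice were also killed at another clock hour: 6 of 8 clock genes (Bmal1, Clock, Per2, Cry1, Nr1d2 and Dbp) changed between fed and 8 h, and 2 (Per1 and Per2) between fed and 24 h, which share the hour. Of 8 immediate early and heat shock genes, 2 rose (Egr1 and Ier2) and 2 fell (Dnajb1 and Hsph1) at 8 h, and Hspa1a rose at 24 h, with a sum of 71.5 to 469 CPM over the libraries. As the mean over the zones, 13.8% of all genes tested rose and 12.5% fell at 8 h, and 17% rose and 17.5% fell at 24 h. The part of clock time or of these stress genes in the values of the 10 was not tested.

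**Figure D2:**
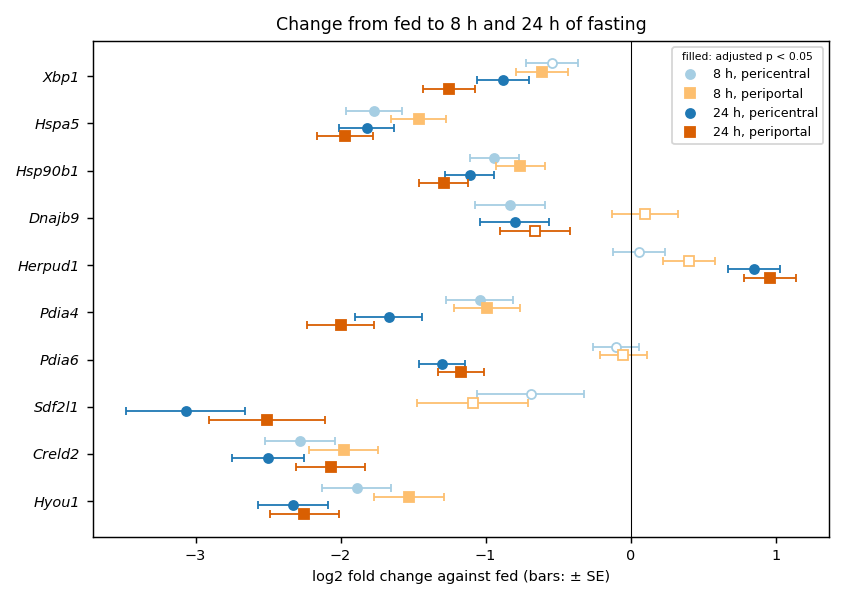
Log2 fold change against fed (horizontal axis, bars ± SE) of each of the 10 genes at 8 h and 24 h in each zone, with filled symbols for an adjusted p under 0.05. Creld2, Hspa5 and Hyou1 lie left of -1.4 in all 4 comparisons, Pdia6 lies at 0 at 8 h and left of -1.1 at 24 h, and Herpud1 lies right of 0.8 at 24 h.

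From 8 h to 24 h the changes of the 10 genes ran from -1.90 (Sdf2l1) to 0.67 (Herpud1) as the mean over the zones. Over both zones 6 fell (Xbp1, Hsp90b1, Pdia4, Pdia6, Sdf2l1 and Hyou1), against 10.2% of all genes tested, and Herpud1 rose, against 10%. Pericentrally Pdia6 (-1.20 ± 0.16) and Sdf2l1 (-2.38 ± 0.40) fell, against 4.51% of all genes, and Herpud1 rose (0.79 ± 0.18, adjusted p = 0.0115), against 5.2%. Without pericentral replicate 2 at 8 h, or replicate 3 at 24 h, the Herpud1 call was lost (adjusted p up to 0.0584). Periportally Xbp1 (-0.64 ± 0.18), Pdia4 (-1.02 ± 0.23), Pdia6 (-1.12 ± 0.16) and Sdf2l1 (-1.42 ± 0.39) fell, against 4.24%. That periportal count of 4 was 8 by DESeq2 and 1 to 6 when 1 library was left out. Hspa5 and Creld2 did not pass in either zone, although the periportal Hspa5 libraries at 24 h (410 to 577 CPM) all lay below those at 8 h (637 to 727 CPM), and so did those of Dnajb9, which did not pass either.

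Between zones the differences of the 10 genes were small. As the mean over the 3 states, 3 were higher periportally: Herpud1 by 0.51 ± 0.10 (adjusted p = 0.00182), Hspa5 by 0.35 ± 0.11 (adjusted p = 0.0275) and Pdia6 by 0.34 ± 0.09 (adjusted p = 0.0129). Of all genes tested, 10.3% were higher periportally. Herpud1, Hspa5, Pdia6 and Hyou1 were higher periportally in the group means of all 3 states. The Hspa5 call was lost in 11 of the 18 fits that left out 1 library (adjusted p up to 0.0695). Without pericentral replicate 1 at 8 h, 6 of the 10 were called. Over all genes the fits without 1 library called 2190 to 2790 in either direction, against 2532 in the full fit.

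Within single states, Herpud1 at 8 h was the only zone difference called, at 0.70 ± 0.18 (adjusted p = 0.0235), where 3.72% of all genes were higher periportally. Its 3 pericentral libraries there (264 to 313 CPM) lay below its 3 periportal ones (429 to 496 CPM). Hspa5 (0.60 ± 0.18, adjusted p = 0.0585) and Dnajb9 (0.76 ± 0.24, adjusted p = 0.066) lay just outside the threshold at 8 h. Both passed when the replicate number was added to the fit as a block, and by DESeq2 and limma-voom, which brings the count to 3. The Herpud1 call itself was lost without pericentral replicate 2 or 3, or periportal replicate 2 or 3, at 8 h (adjusted p up to 0.1). In fed mice none of the 10 was called between zones (8.01% of all genes were, in either direction), nor had any an unadjusted p under 0.05. At 24 h none was called (4.17% of all genes), and 2 had an unadjusted p under 0.05. DESeq2 and limma-voom also called 0 in fed mice and at 24 h.

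**Figure D3:**
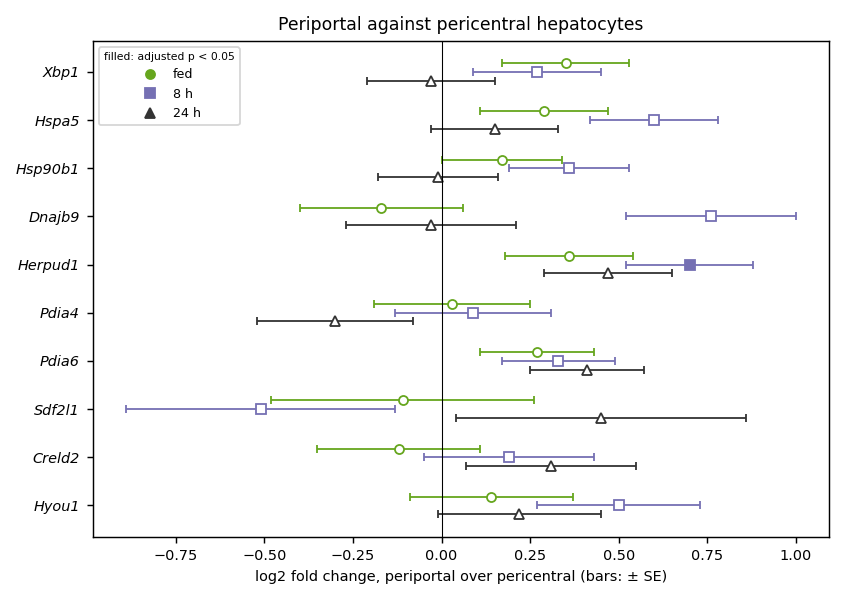
Log2 fold change of periportal over pericentral libraries (horizontal axis, bars ± SE) for each of the 10 genes in fed mice and after 8 h and 24 h of fasting, with filled symbols for an adjusted p under 0.05. Herpud1, Hspa5, Pdia6 and Hyou1 lie right of 0 in all 3 states, and only Herpud1 at 8 h is filled.

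The fasting response was not shown to differ between the zones for any of the 10. The differences of the changes ran from -0.40 (Sdf2l1) to 0.93 (Dnajb9) from fed to 8 h, from -0.38 (Xbp1) to 0.56 (Sdf2l1) from fed to 24 h, and from -0.79 (Dnajb9) to 0.96 (Sdf2l1) from 8 h to 24 h. Their lowest adjusted p-values were 0.909, 0.781 and 0.825, and 0 of 10 were called by edgeR, DESeq2 or limma-voom. Among all genes tested edgeR called 0%, 0.016% and 0% of these differences. With SEs of 0.22 to 0.55 such differences would have to be large to pass. Unadjusted p-values were under 0.05 for 1, 0 and 1 of the 10 genes in the 3 comparisons.

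The order of the 6 group means differed between genes. Hspa5, Hsp90b1, Pdia4, Creld2 and Hyou1 had both fed groups first, and the libraries of the lower fed group did not overlap those of the third group. For Creld2 and Hyou1 that was the only gap between neighbouring groups, since the 4 fasted groups overlapped from one to the next. Xbp1 had periportal fed apart at the top and every later neighbour overlapping. Pdia6 had its 4 fed and 8 h groups overlapping, then a gap to periportal and another to pericentral 24 h. Sdf2l1 had 1 gap, between 8 h and 24 h. Dnajb9 had 1 gap between neighbours, from periportal fed to pericentral 24 h. Pericentral 8 h, last by its mean, still had a library at 114 CPM, above the lowest periportal fed one at 93.1 CPM. Herpud1 had periportal 24 h apart at the top and the other groups overlapping. How many of all genes tested have such gaps was not counted. These orders therefore describe the genes named and do not set them apart from other genes.

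The 9 genes other than Herpud1 also moved together from library to library. Over the 18 libraries the 36 pairs among them had Pearson correlations of log2 CPM from 0.56 to 0.98, with a median of 0.82. The 9 pairs with Herpud1 ran from -0.66 to -0.20. These points share the 3 states and the scaling of each library. After each group's mean was taken away, the 36 pairs ran from -0.03 to 0.96 with a median of 0.64, and the 9 pairs with Herpud1 from -0.08 to 0.60 with a median of 0.38. So Herpud1 ran against the other genes across states but mostly with them within groups.

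Single libraries stood out in this way. In fed periportal replicate 2, 9 of the 10 genes lay below the group mean, with a median deviation of -0.38 (log2), while in fed periportal replicate 3, 9 lay above it, at 0.32. Pericentral replicate 1 at 8 h had 9 above (0.31) and pericentral replicate 3 at 8 h had 0 above (-0.22).

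**Figure D4:**
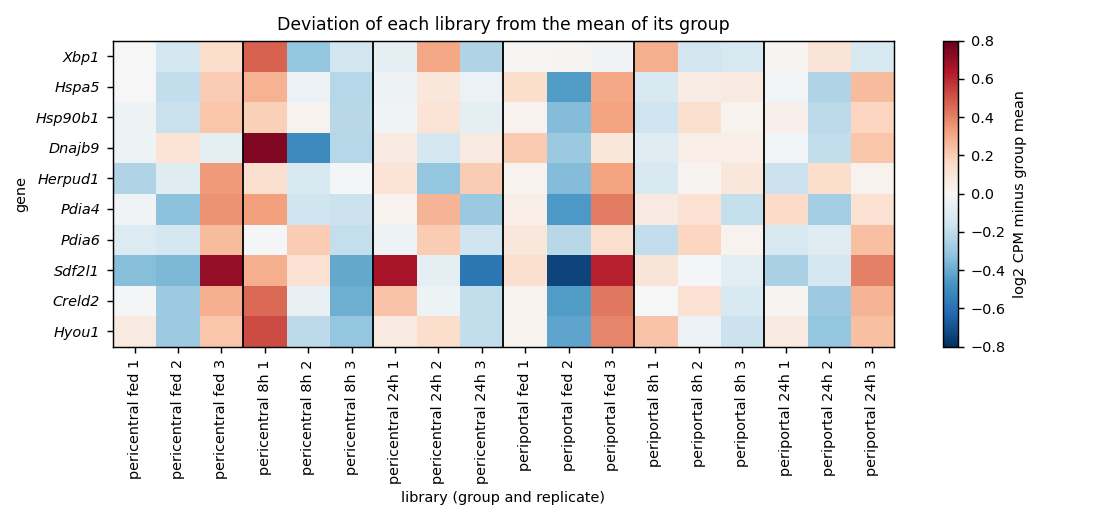
Deviation of each library from its group's mean log2 CPM (colour scale in log2 units, red above and blue below) for the 10 genes in rows and the 18 libraries in columns, with black lines between groups. Fed periportal replicate 2 is blue in 9 of 10 rows and pericentral 8h replicate 1 is red in 9 of 10.

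Around the 10, a list of secretory pathway genes was described by role, 99 of which passed the filter. At 24 h, as the mean over zones, 62 of the 99 fell, or 62.6%, and 4 rose, with a median of -0.45, and at 8 h 35 fell and 6 rose, with a median of -0.15. The shares of all genes that fell were 17.5% and 12.5%. The list was drawn up with results of these data known, so its count is a description.

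Of the 8 sensors and factors, 5 fell at 24 h. Ern1, which encodes IRE1, was at -1.16 ± 0.15 (adjusted p = 2.18e-05) and at -0.30 ± 0.15 at 8 h, which did not pass (adjusted p = 0.142). Eif2ak3, the PERK gene, was at -0.57 ± 0.13 at 24 h (adjusted p = 0.00329). Atf6 was at 0.09 ± 0.08 and did not pass (adjusted p = 0.374). Atf4, the factor made when PERK slows translation, was at -0.42 ± 0.10 at 8 h and -0.45 ± 0.10 at 24 h (adjusted p = 0.0046 and 0.00219). Ddit3, its proapoptotic target CHOP, was at -0.91 ± 0.14 at 8 h and -0.60 ± 0.13 at 24 h (adjusted p = 9.71e-05 and 0.00227). The fall thus reached 2 of the 3 sensors.

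Some known targets of PERK and ATF4 rose, while Ddit3, a target counted above with the sensors and factors, fell at both times. Of the other 6 tested, as the mean over the zones, 4 rose at 8 h (Sesn2, Trib3, Chac1 and Ppp1r15a) and Atf3 fell. At 24 h 3 rose (Sesn2, Trib3 and Ppp1r15a) and 0 fell. The median changes of these 6 were 0.89 and 0.77. Of all genes tested 13.8% rose at 8 h and 17% at 24 h. Pericentrally 4 of the 6 rose at either time, and periportally 1 rose at 8 h and 2 at 24 h. Among all 12477 genes tested, 907 rose at 8 h and 1344 at 24 h pericentrally, and 943 and 1196 periportally. The fasting response was not shown to differ between the zones for these targets: 0 of the 6 were called in each such comparison. Sesn2, a stress-induced inhibitor of mTORC1 signalling, rose by 1.41 ± 0.14 at 8 h and 1.97 ± 0.14 at 24 h (adjusted p = 2.45e-06 and 6.25e-08). Asns, the asparagine synthetase, was at 0.20 ± 0.45 at 24 h and did not pass (adjusted p = 0.778). Between zones Asns was lower periportally by 1.84 on the log2 scale (SE 0.37, adjusted p = 0.00273), the largest difference in the list among genes with a mean of at least 5 CPM.

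Among the other HSP70 and HSP90 system genes, 7 of 10 fell at 24 h and none rose. Manf, which binds BiP and is secreted under ER stress, was at -1.68 ± 0.18 at 8 h and -2.31 ± 0.18 at 24 h (adjusted p = 5.92e-06 and 2.77e-07). Dnajc3, an HSP40 co-chaperone of BiP, was at -0.56 ± 0.11 at 24 h (adjusted p = 0.000721) and higher periportally by 0.41 over the 3 states. Of the lectin chaperones and glycoprotein checking genes 5 of 6 fell at 24 h, among them Calr, the calreticulin gene, at -1.35 ± 0.13 (adjusted p = 1.15e-06). At 8 h Calr was at -0.35 ± 0.13 and did not pass (adjusted p = 0.0564). Of the disulfide and prolyl isomerase genes 7 of 13 fell at 24 h. Ero1b, an oxidase that recharges disulfide isomerases, was at -1.55 ± 0.11 (adjusted p = 4.57e-08) and was higher periportally by 0.81 ± 0.09 over the 3 states (adjusted p = 3.93e-06).

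In ER-associated degradation 7 of 16 fell and Ube2j2, a ubiquitin-conjugating enzyme, rose at 24 h, with a median of -0.19, while Herpud1 of the same pathway rose. Syvn1, the ubiquitin ligase HRD1 to which HERPUD1 protein binds, was at -0.98 ± 0.14 at 8 h and -1.48 ± 0.15 at 24 h (adjusted p = 0.000105 and 1.68e-06). Of the translocon, signal peptidase and targeting genes 14 of 17 fell at 24 h. Spcs2, a signal peptidase subunit, was at -0.68 ± 0.12 (adjusted p = 0.000269). Of the N-linked glycosylation genes 7 of 10 fell, and Alg2, a mannosyltransferase, was at -1.33 ± 0.18 (adjusted p = 3.9e-05). Of the ER to Golgi transport genes 10 of 13 fell, and Sec23b, a COPII coat subunit, was at -1.31 ± 0.12 (adjusted p = 5.89e-07).

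**Figure D5:**
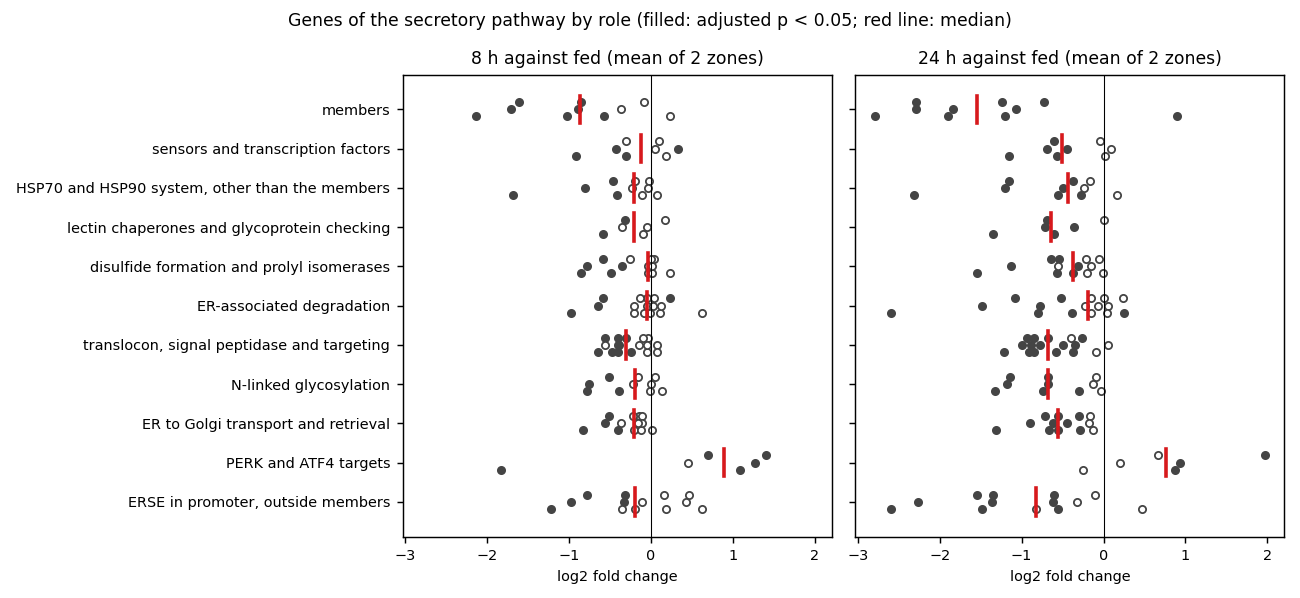
Log2 fold change against fed, mean of both zones, at 8 h (left) and 24 h (right) for the 10 genes, for the secretory pathway genes by role and for other genes with an exact ERSE, with 1 point per gene, filled for an adjusted p under 0.05, and a red line at the median. At 24 h every role but the PERK and ATF4 targets has its median below 0.

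Genes were also picked by the exact ERSE, which in part drew the same genes as the list by role. Outside the 10, 13 genes with this element in a RefSeq window were tested. At 24 h 9 of these fell and none rose, or 69.2%, beside 17.5% of all genes tested, with a median of -0.82. At 8 h 5 fell and none rose, with a median of -0.19. The 9 were Derl3, Acacb, Ero1b, Syvn1, Alg12, Calr, Hnrnpa3, Canx and Dnajc3. Derl3, Ero1b, Syvn1, Calr, Canx and Dnajc3 are also in the list by role, and Alg12 shares its element with Creld2. Among the other genes tested Acacb and Hnrnpa3 fell, and Xlr3a, Adcy3, Acnat2 and Pan2 were not called. Acacb, the acetyl-CoA carboxylase of fatty acid oxidation control, was at -2.27 (adjusted p = 0.00017). Derl3, an ERAD channel component, was at -2.59 (adjusted p = 0.00335) on a mean of 2.66 CPM. This search was made after changes of these genes had been seen, and it carries no test.

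Of 7 other genes tested with ERSE-II, 2 fell (28.6%) and 1 rose at 24 h, with a median of -0.16. Of all genes tested 17.5% fell and 17% rose at 24 h. The HSP40 gene Dnajb11 was among those that fell (-1.20 ± 0.11, adjusted p = 5.89e-07). Its element has the same fixed letters as that of Herpud1, which rose. The part of the element in either change was not tested. Of 91 other genes with the UPRE core, 24 fell (26.4%) and 13 rose at 24 h, with a median of -0.05. At 8 h 1 of the 7 ERSE-II genes fell and 3 rose, and 17 of the 91 UPRE core genes fell and 8 rose. Of all genes tested 12.5% fell and 13.8% rose at 8 h.

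The genes most like Hspa5 in log2 CPM over the 18 libraries, among 6728 with a mean of at least 10 CPM, were Manf (Pearson 0.979), Magt1 (0.973), Uso1 (0.969), Mogs (0.966), Dnajb11 (0.963), Sel1l (0.958), Anks4b (0.952), Tfrc (0.946), Cdk2ap2 (0.946) and Mid1ip1 (0.941). For Xbp1 they were Svil (0.933), Sec23b (0.924), Slc36a1 (0.920), Manf (0.919) and Syvn1 (0.918). All 18 libraries share the 3 feeding states, so any gene lowered by fasting gains likeness. Manf stood in both lists.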

How the data were processed

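Bulk RNA-seq was measured in 18 libraries (6 groups of 3). The deposited values are estimated counts per Ensembl gene, made by the authors with kallisto 0.46.0 and the build mm10 per the submitters' processing notes; how transcripts were summed, the annotation and the strand setting are not given in the sources used here. Counts were rounded to whole numbers, genes filtered with filterByExpr, scaled by TMM and fitted in 1 model of the 6 groups with edgeR 4.0.16 (R 4.3.3), quasi-likelihood F test, Benjamini-Hochberg over 12477 genes in each of 16 contrasts, called at an adjusted p under 0.05. An SE is the absolute log2 fold change over the root of F. Reads of near-identical copies or overlapping genes could be split by the estimation. The alternatives were DESeq2 1.42.0, limma-voom 3.58.1, other scalings and filters, a replicate block and leaving out each library; the closing section gives their effect. The scripts were tested on simulated data. Positions and the Xbp1 stretch come from GENCODE M21 (GRCm38) and promoters from RefSeq GRCm38.p6.

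The members and all lists were chosen with earlier results of these data known. Named besides the 10 are Ern1, Eif2ak3, Atf6, Atf4 and Ddit3, and from the list by role the 4 largest called changes with a mean of at least 5 CPM in each comparison averaged over zones or states, from which examples were taken, and the genes most like Hspa5 and Xbp1. The genes with an ERSE or ERSE-II, and Trib3, Chac1, Ppp1r15a, Atf3 and Ube2j2, were chosen after their values were seen. Of 101 genes in the list by role 99 were tested. Same-numbered pericentral and periportal libraries deviated together at 24 h (correlations of their deviations from the group means 0.12 to 0.17), the only 1 of 15 pairs of groups with all 3 over 0.1; the labels do not say what a number stands for.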

Additional observations from a re-analysis of the deposited data

How the results depend on the processing

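Of the 160 values of the 10 genes over 16 comparisons, 66 were called; 54 of these kept their call under every alternative, 12 lost it under some and none changed sign. Of the 94 not called, 16 were called under some alternative and 29 changed sign under some; 41 of the 160 lay within 1 SE of 0. Among values farther from 0, 1 changed sign: Hsp90b1 between zones in fed mice, 0.17, was -0.00 without periportal fed replicate 3 and -0.00 to 0.32 over the fits without 1 library. The 8 h zone count of 1 gene was 3 with the replicate block, 3 by DESeq2 and 3 by limma-voom, and 0 to 4 when 1 library was left out. The zone count over 3 states, 3, was 2 to 6 without 1 library, and the periportal count from 8 h to 24 h, 4, was 8 by DESeq2 and 1 to 6 without 1 library. The cause of these moves was not tested. The replicate block moved no other count of the 10 by over 1.5 times, nor at 24 h, where the numbers may pair the libraries. Over all genes tested, fitting only the groups compared moved the 8 h zone count from 891 to 450, the pericentral count from 8 h to 24 h from 1212 to 617 and the periportal one from 931 to 413. DESeq2 moved the 24 h zone count from 520 to 821 and the zone differences from 0, 2 and 0 to 6, 38 and 3; the block and limma-voom gave 0 for the second. Leaving out 1 library gave 252 to 624 at 24 h between zones and 335 to 981 periportally from 8 h to 24 h. The zone contrast over 3 states uses all 6 groups, so a fit of only its groups is the fit reported and has no value of its own. With 3 libraries a group, the SEs of 0.16 to 0.41 between zones within a state limit what can be seen.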
